A study of Mus musculus with 22 samples.

Results

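C1C3a and C3+14 are a pair of constructs derived from DUX, and the 2 C1C3a libraries were compared with the 2 C3+14 libraries. They were chosen by their labels and are 4 of the 22 samples of the series and 4 of the 14 libraries that share 1 deposited table. All the groups used here were Dux-/- mouse embryonic stem cells (mESCs) kept in 2i/LIF, a medium with a pair of kinase inhibitors and the cytokine LIF that holds these cells in a naive state. Each group expressed an mCherry-tagged construct: mCherry-C1C3a Dux, mCherry-C3+14 Dux, mCherry-FL Dux (full-length, called FL here) or mCherry alone. All received 0.25 ug/mL doxycycline for 12 h after 24 h of recovery from plating, so the controls carry the same deletion and the same drug. C1C3b, C1C3c and C1+14 are further constructs of that table. The labels do not say what C1, C3, a, b, c or 14 stand for, and the column headings write 14 as 14aa and add it to the name of C1C3a. Whether a line is 1 clone, how much of each protein was made, and whether replicates were separate cultures are not stated, so p-values measure the spread between these samples, which may be technical. Duxf3, the deleted gene, had 0 reads in all 14 libraries, so it does not check which construct a library carried.

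DUX is a transcription factor with a pair of homeodomains at its amino-terminal end, which bind DNA, and an activating carboxy-terminal region that recruits the p300 and CBP acetyltransferases. It acts in the mouse embryo at the time the zygotic genome is switched on, and in mESCs it turns on the genes and repeats of the 2-cell embryo, Zscan4, Zfp352 and Tcstv among them, while genes of the pluripotent state fall. Many of those genes exist in near-identical copies, and their reads can be assigned to several places. Genes were therefore kept in separate classes by how much of their sequence other genes share.

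Depth was 32543856 and 29559780 reads in C1C3a and 21059953 and 22052011 in C3+14. Values are normalised reads, that is reads divided by 1 size factor per library. 1 read is 1.11 and 1.42 normalised reads in the C1C3a libraries and 1.68 and 1.62 in those of C3+14. Reads in 1637 genes with many copies made up 2.07% and 1.81% of the C1C3a libraries and 0.30% of both C3+14 libraries. FL stood with C1C3a (2.07% and 1.91%) and mCherry with C3+14 (0.320% and 0.350%). This kind of library and the construct cannot be told apart in genes with copies. Mitochondrial reads were 6.19% and 5.89% in C1C3a and 9.02% to 10% in C3+14. Thinned to 20000000 reads, the C3+14 libraries still detected more genes (27696 and 27998) than those of C1C3a (25318 and 23776). The part of these differences in the results was not tested.

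Of 21584 genes tested, 3215 (14.9%) were called different at an adjusted p under 0.05 (limma, Benjamini-Hochberg) and a change of at least 2-fold. Among them 1623 were higher in C1C3a and 1592 were higher in C3+14. The balance differed between the classes. Of 14840 single-copy genes, with under 10% of their 50-base stretches in another gene, 1469 (9.90%) were called, 328 (2.21%) higher in C1C3a and 1141 (7.69%) higher in C3+14. The single-copy count fell to 640 without C3+14 replicate 2, 797 without C1C3a replicate 2 and 923 without C3+14 replicate 1. The count over all genes fell to 1801 without C3+14 replicate 2 and 2018 without C1C3a replicate 2, and the multi-copy count to 1087 without C3+14 replicate 2. Of 6551 multi-copy genes 1651 (25.2%) were called, 1226 (18.7%) higher in C1C3a and 425 (6.49%) higher in C3+14. A further 104 genes were kept apart because they already differed at least 4-fold between replicate libraries of deletion constructs that fall into the 2 kinds of library, and 70 of these (67.3%) were called, 63 of them higher in C1C3a. The remaining 89 genes could not be classed. Among the 7223 single-copy genes with no shared stretch at all, 703 (9.73%) were called, 142 higher in C1C3a and 561 higher in C3+14.

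**Figure D1:**
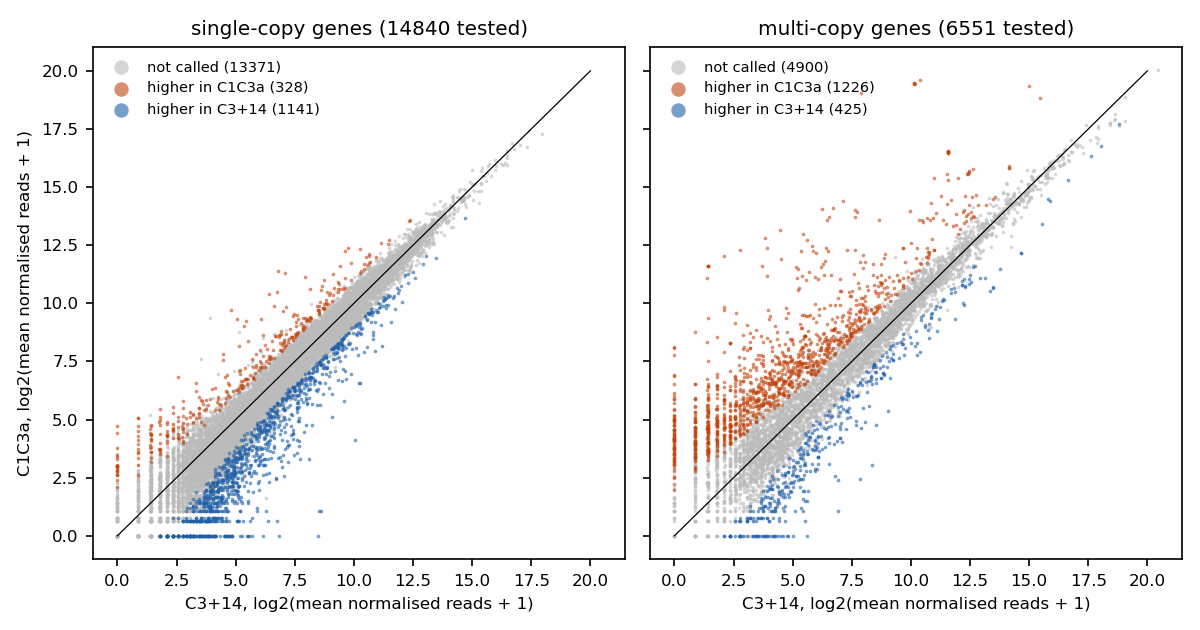
Each point is a gene, with its mean in C3+14 on the x axis and in C1C3a on the y axis, both as log2 of normalised reads plus 1. Among single-copy genes (left) more called genes lie below the diagonal, 1141 against 328, and among multi-copy genes (right) more lie above it, 1226 against 425.

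The single-copy difference went with base composition. The median log2 difference, C1C3a minus C3+14, rose from -0.55 in the 2968 genes with the lowest GC content of their transcript to 0.31 in the 2968 with the highest. In the lowest of these 5 equal groups 538 genes were higher in C3+14 and 28 in C1C3a, and in the highest 36 and 162. Across the 14840 genes, which are not independent, the difference correlated with GC content with a Spearman rho of 0.464. Within libraries, the deviation of a gene from its mean over all 14 had a rho with GC content of -0.289 and -0.358 in C3+14, 0.120 and 0.0498 in C1C3a, 0.243 and 0.269 in mCherry, and -0.320 and -0.273 in C1C3b. After a per-library correction for GC content, chosen after seeing the data, 976 single-copy genes (6.58%) were called, 338 (2.28%) higher in C1C3a and 638 (4.30%) higher in C3+14. Over all genes it called 12.3%, and over multi-copy genes 24.2%. The correction moved the median of all genes from -0.06 to 0.13, and the share of calls that were higher in C1C3a from 50.5% to 66.0% over all genes and from 22.3% to 34.6% over single-copy genes. Of the single-copy calls, 818 were made with and without it in the same direction (220 and 598) and 0 turned. A difference in the cells and a difference in library preparation cannot be told apart here, so corrected values are given beside calls that they end. The 549 genes of the X chromosome, with a median difference of -0.47, had 83 calls higher in C3+14 and 7 higher in C1C3a, against 7.69% and 2.21% of all single-copy genes. With the correction their median was -0.05 and the calls were 47 and 11, against 4.30% and 2.28%.

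**Figure D2:**
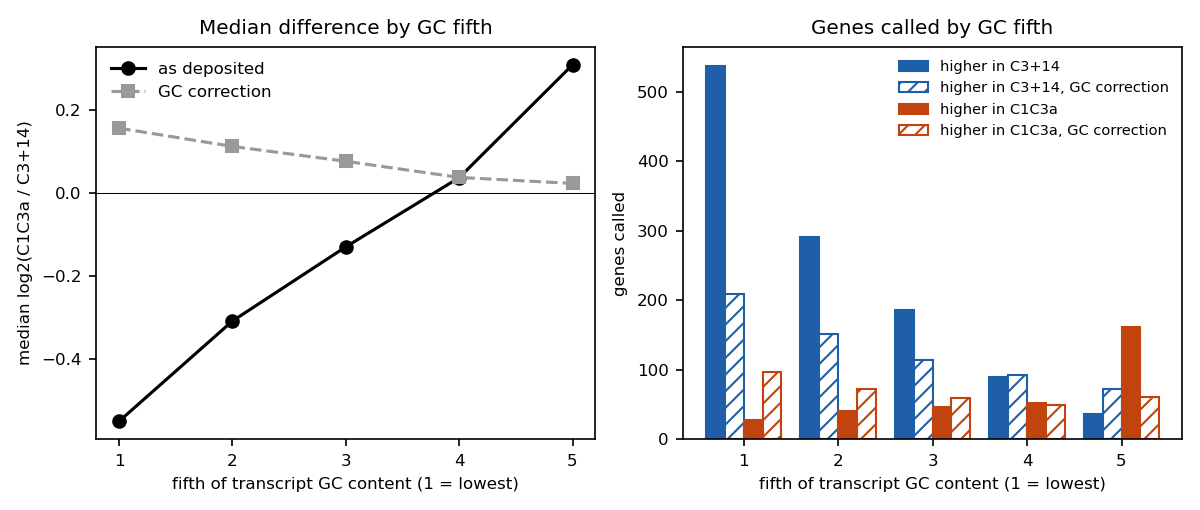
Left, the median log2 difference (C1C3a over C3+14) of the 2968 single-copy genes in each of 5 groups by transcript GC content, as deposited and after the GC correction. Right, the number of genes called in each group, where calls in C3+14 fall from 538 to 36 from the lowest to the highest group as deposited and from 209 to 72 after correction.

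The 12 named genes that stood highest in C3+14 over C1C3a were Cyp2g1, Has2os, Ifi47, Lrfn5, Tenm1, Clec1a, Ano5, Ermn, Fmo2, Cd69, Rgs9 and Pcdh9. All 12 kept their call after the GC correction. Between FL and mCherry Ano5 and Pcdh9 were called higher in FL, Lrfn5 and Tenm1 lower, and the other 8 were not called. Cyp2g1, a cytochrome P450 of the olfactory mucosa (chromosome 7, 26808892 to 26821205, GRCm38), had 410.5 and 363 normalised reads in C3+14 and 2.21 and 0 in C1C3a. It was listed at 0 in both FL and both mCherry libraries. Its level was at least 102-fold higher in C3+14 than a floor of 3 reads per library in C1C3a (log2 difference -7.75, SE 0.63, limma adjusted p = 2.3e-06).

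Has2os, an RNA antisense to the hyaluronan synthase gene Has2, had 417 and 324 normalised reads in C3+14, 2.21 and 0 in C1C3a, 0 in both FL libraries and 0.660 and 1.72 in mCherry. The difference was at least 97.9-fold. Has2 itself had 0 reads in C1C3a and 1.68 and 1.62 normalised reads, or 1 read each, in C3+14 (log2 difference -1.40, limma adjusted p = 0.412). Whether the counting used strand is not given in the sources used here. Ifi47, a GTPase induced by interferon gamma, had 116 and 113 normalised reads in C3+14 and 0 in all C1C3a, FL, mCherry and C1C3b libraries. It was at least 30.3-fold higher in C3+14 than in C1C3a (adjusted p = 1.0e-06, limma). Of the 12 single-copy genes tested from the interferon and RNA-sensing list 0 were called by limma, edgeR or DESeq2, and 2 had an unadjusted p under 0.05.

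Tenm1, Lrfn5 and Pcdh9 encode adhesion proteins of neurons. Tenm1, a teneurin that joins cells at synapses, had 1020.3 and 1077 normalised reads in C3+14, 11.1 and 21.2 in C1C3a, 7.37 and 1.19 in FL and 15.2 and 11.2 in mCherry. Its libraries did not overlap, and the log2 difference was -6.00 (SE 0.64, limma adjusted p = 2.8e-05). Lrfn5, a synaptic adhesion protein, had 82.1 and 58.3 in C3+14 and 0 in both C1C3a libraries, at least 18.6-fold apart. Pcdh9, a protocadherin, had 265 and 283 normalised reads in C3+14 against 13.3 and 4.25 in C1C3a. Rgs9, a regulator of G-protein signalling in photoreceptors and striatum, had 245 and 181 against 16.6 and 1.42, with 30.9 and 28.6 in FL and 39.6 and 75.5 in mCherry. Ermn, a cytoskeletal protein of oligodendrocytes, had 122 and 139 against 9.96 and 0. Of the 7 neural markers tested 0 were called by limma, edgeR or DESeq2, and 1 had an unadjusted p under 0.05. Their summed level was 1899 and 1853 in C1C3a, 1488 and 1571 in C3+14 and 3232 and 3512 in mCherry.

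The other 4 were a pair of lectin-like receptor genes, an ion channel relative and an oxidase. Clec1a, a C-type lectin of endothelium and dendritic cells, had 77.1 and 87.5 normalised reads in C3+14 and 1.11 and 0 in C1C3a. Cd69, an early activation marker of lymphocytes, had 67.0 and 50.2 against 2.21 and 0. Ano5, an anoctamin of muscle, had 87.1 and 68.0 against 2.21 and 0. Fmo2, a flavin monooxygenase, had 154 and 198 in C3+14 and 19.9 and 0 in C1C3a, so its C1C3a libraries differed, and it was not called when the fit held the 4 libraries alone (limma adjusted p = 0.0536). In C1C3b the 12 genes differed among themselves. Clec1a had 175 and 178 normalised reads in C1C3b, Fmo2 476 and 659 and Ermn 688 and 572, whereas Cyp2g1, Has2os and Ifi47 had at most 1.88 there.

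The 1141 single-copy genes higher in C3+14 had a median of 38.6 normalised reads in C3+14, 7.19 in C1C3a, 10.2 in FL, 6.83 in mCherry, 52.97 in C1C3b and 24.3 in C1C3c. C1C3a was at 3 reads or fewer in both libraries for 400 of them (35.1%, against 7.82% of all single-copy genes), a share that the choice of genes low in C1C3a partly sets. C3+14 itself was at that floor for 29 of the 1141, out of 864 such genes among all single-copy genes, so those calls rest on a few reads. FL, C1C3a and mCherry were all at that floor for 189 of the 1141, out of 321 such genes among all single-copy genes. Of the 189, 134 kept their call after GC correction and 12 were also at the floor in C1C3b. Genes at the floor in these groups were tested only where other libraries, of C3+14, C1C3b, C1C3c or C1+14, passed the filter. The filter therefore partly sets the 189, the 321 and the 12. Of the 1141, 259 (22.7%) were called higher in FL than in mCherry, 209 were called lower and 673 (59.0%) were not called, against 15.3%, 22.8% and 61.8% of all single-copy genes. Of the 328 higher in C1C3a, 122 (37.2%) were called higher in FL, 97 (29.6%) lower and 109 (33.2%) were not called. Scn7a, a sodium channel, was one of the 189, with 38.5 and 66.4 normalised reads in C3+14 and 53.5 and 80.7 in C1C3b.

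The 12 named genes that stood highest in C1C3a over C3+14 were all among those that full-length DUX raised. They were Omd, Arhgap8, Senp7, Zan, Tmc5, BC051077, Nlrc3, Dcdc2c, Ccdc62, Tmem132c, Ftx and Siglec1. Each was called higher in FL than in mCherry, a comparison with no library of C1C3a or C3+14 that called 15.3% of single-copy genes higher. All 12 kept their call after the GC correction. FL shares its kind of library with C1C3a, and mCherry shares that of C3+14. The comparison of FL with mCherry thus differs in kind of library as that of C1C3a with C3+14 does. C1C3b is of the kind of C1C3a (2.04% and 2.02% of reads in genes with many copies). In C1C3b Omd had 123 and 86.4 normalised reads, Senp7 60.5 and 38.5 and Tmem132c 25.4 and 30.0. Shared stretches reached 9.75% in Ftx and 8.96% in Dcdc2c, near the 10% limit, and were fewer in the others.

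Omd encodes osteomodulin, a keratan sulfate proteoglycan of bone (chromosome 13, 49582462 to 49592822). It had 604 and 679.5 normalised reads in C1C3a, 26.8 and 37.3 in C3+14, 1428 and 849.9 in FL and 3.30 and 4.29 in mCherry. The groups did not overlap, and the log2 difference was 4.30 (SE 0.33, limma adjusted p = 1.3e-06). Zan, which encodes the sperm protein zonadhesin, had 526 and 664 in C1C3a and 41.9 and 42.1 in C3+14, against 37.6 and 38.6 in mCherry. Ccdc62, a coiled-coil gene of testis, had 864 and 1026 against 102 and 95.6. BC051077 had 475 and 555 against 33.5 and 47.0. These 4 genes were highest in FL, with C1C3a between FL and C3+14.

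In 5 other genes C1C3a exceeded FL as well. Arhgap8, a GTPase-activating protein, had 2272 and 2839.8 normalised reads in C1C3a, 116 and 154 in C3+14, 607 and 607 in FL and 243 and 292 in mCherry, so its C3+14 libraries were the lowest of the 4 groups. Senp7, a SUMO protease, had 1084 and 1591 in C1C3a against 80.4 and 89.1 in C3+14, and mCherry had 72.6 and 90.9. Tmc5, a transmembrane channel-like gene, had 1158 and 1744 against 93.8 and 121. For Tmem132c, a transmembrane gene, the values were 1884 and 2574 against 253 and 227. Dcdc2c, a doublecortin-domain gene, had 522 and 747 against 87.1 and 47.0, and its call ended when C3+14 replicate 2 was left out (log2 difference 2.83, limma adjusted p = 0.0570). With a pseudocount of 0.1 Dcdc2c and BC051077 were not called (adjusted p = 0.154 and 0.0706, limma).

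The last 3 were lower in level. Nlrc3, an inhibitory relative of the NOD-like receptors, had 205 and 242 normalised reads in C1C3a, 18.4 and 24.3 in C3+14 and 110.2 and 138 in mCherry. Ftx, a noncoding RNA of the X-inactivation centre, had 125 and 249 against 15.1 and 27.5 in C3+14 and 51.5 and 68.6 in mCherry. Siglec1, sialoadhesin of macrophages, had 52.0 and 56.6 against 6.70 and 4.86, with 16.5 and 21.4 in mCherry. In all 3 both C3+14 libraries lay below both mCherry libraries, and both C1C3a libraries lay above them.

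**Figure D3:**
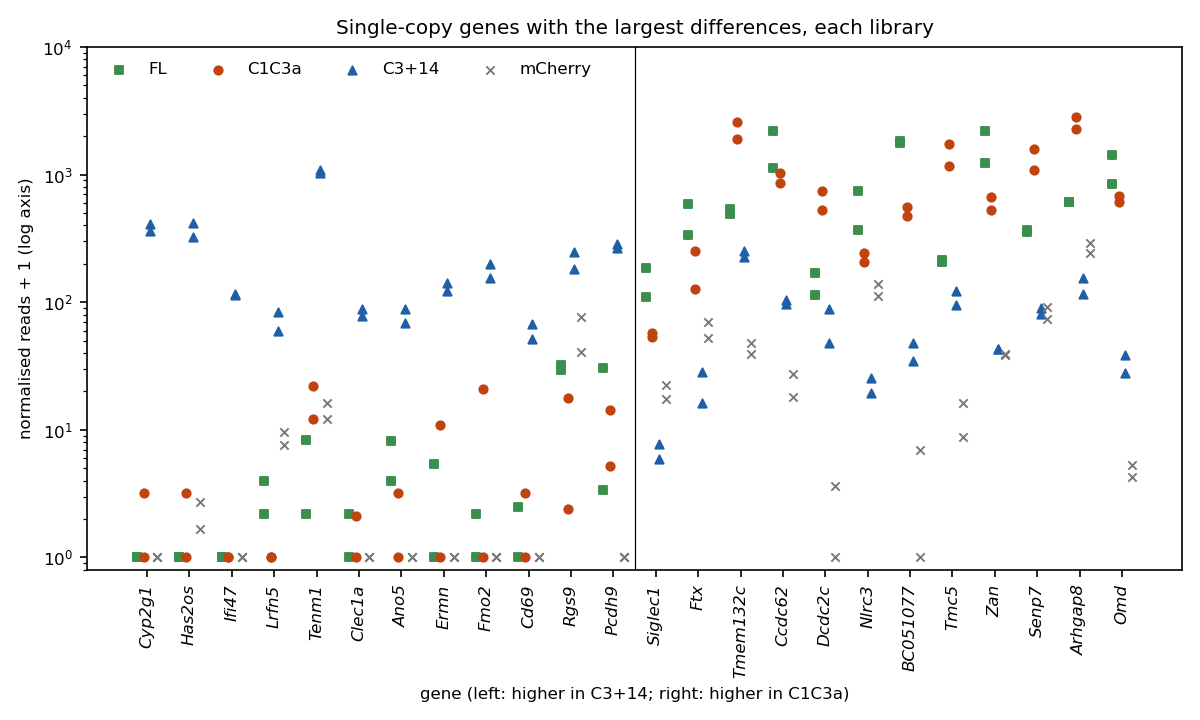
Normalised reads plus 1 on a log axis for each library of FL, C1C3a, C3+14 and mCherry, for the 12 single-copy genes with the largest difference in each direction. On the left the C3+14 libraries stand highest, between 50.2 and 1077 normalised reads; on the right the C1C3a libraries lie above C3+14, from 52.0 to 2839.8.

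The median composition of promoters differed between the sides. RefSeq (GRCm38.p6) gave a start site for 10462 of the single-copy genes tested. The 2 leading genes of each side that have an entry are printed as the 250 bases before the listed start, with TGATT or its reverse complement AATCA in capitals. This is one arm of the palindromic element TGATTNAATCA bound by DUX.
Ifi47 (chr11:49076337-49076586, plus strand): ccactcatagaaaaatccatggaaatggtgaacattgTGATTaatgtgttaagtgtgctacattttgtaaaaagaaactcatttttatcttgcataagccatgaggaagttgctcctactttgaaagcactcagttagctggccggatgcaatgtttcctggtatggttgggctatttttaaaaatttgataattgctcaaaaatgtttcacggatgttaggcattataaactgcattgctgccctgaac
Lrfn5 (chr12:61522917-61523166, plus strand): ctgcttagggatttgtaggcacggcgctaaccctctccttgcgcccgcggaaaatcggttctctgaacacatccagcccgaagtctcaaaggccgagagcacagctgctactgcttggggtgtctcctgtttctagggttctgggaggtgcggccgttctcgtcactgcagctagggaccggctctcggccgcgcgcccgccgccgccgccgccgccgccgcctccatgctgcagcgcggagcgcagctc
Omd (chr13:49582212-49582461, plus strand): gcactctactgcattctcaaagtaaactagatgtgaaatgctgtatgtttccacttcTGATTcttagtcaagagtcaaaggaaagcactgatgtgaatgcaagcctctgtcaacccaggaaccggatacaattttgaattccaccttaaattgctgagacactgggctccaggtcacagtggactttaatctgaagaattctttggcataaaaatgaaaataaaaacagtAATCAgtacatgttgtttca
Senp7 (chr16:56057280-56057529, plus strand): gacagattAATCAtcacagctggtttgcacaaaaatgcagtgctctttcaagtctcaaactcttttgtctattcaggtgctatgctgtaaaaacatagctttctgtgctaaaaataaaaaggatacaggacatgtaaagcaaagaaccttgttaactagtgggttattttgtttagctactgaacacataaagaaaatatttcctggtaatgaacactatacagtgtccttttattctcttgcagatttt
The first pair was higher in C3+14 and the second pair in C1C3a. Ifi47 holds 1 arm in 36.8% GC, Lrfn5 none in 66.4% GC, Omd 2 in 38.4% GC and Senp7, at the first of its 3 listed starts, 1 in 34.0% GC. The Senp7 stretch lies inside the gene as annotated in GENCODE, which starts at 56048338. Omd and Senp7 lie far below the median GC content of their side given below, and Lrfn5 lies above that of its own. The printed genes therefore do not stand for their sides. In windows of 300 bases, both strands searched, the whole element was in 0 of 178 promoters of genes higher in C1C3a, 0 of 714 of genes higher in C3+14 and 1 of 10462 in all. GATTNAATC, which lies inside it, was in 1, 4 and 23 of these promoters (0.562%, 0.560% and 0.220%). The arm TGATT was in 29.2% of promoters of genes higher in C1C3a, 48.6% of those higher in C3+14 and 34.5% of all. Median promoter GC content was 63.2%, 53.7% and 60.3% in the same order, and the median number of CpG sites was 21, 10 and 19. Among genes called both with and without the GC correction, the median numbers of CpG sites were 18 and 8 and the shares with the arm 28.6% and 49.2%. Their median promoter GC content still differed, at 62.5% and 52.7%. The correction used the GC content of transcripts and not of promoters, and the part of this in the remaining difference was not tested. The part of promoter composition in the shares with the arm was not tested. A match is not a measured binding site.

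Full-length DUX raised 2277 of the single-copy genes, and over these their median level was high with both constructs. The median log2 rise over mCherry was 2.78 and 2.66 in the C1C3a libraries, 3.23 and 3.26 in those of C3+14 and 2.72 and 2.47 in FL. C1C3a and C3+14 did not overlap, and C1C3a overlapped FL. Of the 2277 genes 381 (16.7%, against 9.90% of all single-copy genes) were called between the constructs, 122 higher in C1C3a and 259 in C3+14. The count was 184 without C3+14 replicate 2, 202 without C1C3a replicate 2 and 221 without C3+14 replicate 1. With the multi-copy limit at 50% of stretches in place of 10% the balance turned, with 59.9% of 817 calls higher in C1C3a. With the GC correction 13.4% were called, 151 and 154, against 6.58% of all single-copy genes. The correction moved the median difference from -0.23 to -0.02. By the size of the rise in FL, the median difference was -0.18 (corrected -0.05) in the 794 genes raised by 1 to 2 on the log2 scale and -0.41 (-0.14) in the 931 raised by 2 to 4. It was -0.22 (0.15) in the 363 raised by 4 to 6. In the 189 raised by at least 6 it was 0.09 (0.51), with 15 calls higher in C1C3a and 10 in C3+14 as deposited and 24 and 5 corrected. These groups were set by FL over mCherry, which differ in kind of library as C1C3a and C3+14 do. The part of the kind of library in the groups was not tested. With the limit for type-sensitive genes at 2-fold in place of 4-fold, 26.9% of 331 DUX-induced calls were higher in C1C3a.

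Genes that FL lowered had about the same median level with both constructs. Over the 3385 such single-copy genes the median log2 change from mCherry was -1.53 and -1.68 in C1C3a and -1.55 and -1.54 in C3+14, with overlap, and -1.98 and -1.72 in FL. Between the constructs 306 of them (9.04%, against 9.90% of all single-copy genes) were called, 97 higher in C1C3a and 209 in C3+14. With the GC correction it was 161 (4.76%, against 6.58%), 71 and 90. Without C3+14 replicate 2 there were 142 calls and without C1C3a replicate 2 there were 186. Many induced genes of high level showed no call. Eef2, elongation factor 2, had 118850.0 and 125133 normalised reads in C1C3a and 112020.0 and 100325 in C3+14, against 49224 and 52405 in mCherry. Rack1, a ribosomal scaffold protein, and Atp5b, the beta subunit of ATP synthase, were the other 2 most abundant such genes, with log2 differences of -0.15 and -0.08. The directions of Eef2 and Rack1 turned with the GC correction (-0.038 and 0.065).

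Of 9 single-copy genes of the 2-cell state 1 was called, near the 9.90% of all single-copy genes, and the median difference over the 9 was 0.00. The 34 calls over all gene lists fell to 17 without C3+14 replicate 2, 20 without C1C3a replicate 2 and 21 without C3+14 replicate 1. Zfp352, a zinc finger gene that marks the state, had 22928 and 29459 normalised reads in C1C3a, 28261 and 30663 in C3+14, 7784 and 4634 in FL and 0 in mCherry. The groups overlapped, and the difference was -0.18 (SE 0.40, limma adjusted p = 0.789), turning to 0.29 with the GC correction. Tmem92 had 25454 and 21721 against 22089 and 21125. Nelfa, a subunit of the negative elongation factor, had 45926 and 62324 in C1C3a against 33289 and 32025 in C3+14, a difference of 0.71 with an adjusted p of 0.0069 that is under the 2-fold limit. Ddit4l, an inhibitor of mTOR signalling, had 2417 and 3228 against 1555 and 1573, at 0.84, and was called with the GC correction at 1.20. The called gene was Rfpl4, a RING finger gene of oocytes, with 1.11 and 2.83 in C1C3a and 11.7 and 8.10 in C3+14. Its call ended with the GC correction (adjusted p = 0.150, limma) and whenever any 1 library was left out.

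Of 17 single-copy pluripotency genes 4 were called, all higher in C1C3a, against 2.21% of all single-copy genes called higher, and 13 were not called. The median difference over the 17 was 0.37 against -0.13 over all single-copy genes (0.71 and 0.07 with the GC correction, where 3 were called, against 2.28%). Klf2, a naive-state factor, had 1308 and 1563 normalised reads in C1C3a, 456 and 478 in C3+14 and 4015 and 4214 in mCherry (log2 difference 1.61). Tbx3, a T-box factor of self-renewal, had 3025 and 3575 against 1401 and 1373, with 4388 and 4247 in mCherry. Sall4, a zinc finger factor, had 10246 and 13467 against 5420.1 and 5026 and was the only one of these 3 above mCherry (4469 and 4643) in both constructs. Nr0b1, the nuclear receptor DAX1, had 2469.5 and 3937 against 1516 and 1531, and lost its call with the correction (adjusted p = 0.0825, limma). The calls of Klf2 (adjusted p = 0.0671 to 0.0888, limma) and Tbx3 (0.0705 to 0.107) ended without C1C3a replicate 2, C3+14 replicate 1 or C3+14 replicate 2, and Sall4 was under 2-fold without C1C3a replicate 2 (0.97) and with quantile normalization (0.95).

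The core factors were not called. Nanog had 8928 and 8971 normalised reads in C1C3a and 7097 and 6799 in C3+14, without overlap, and 16214 and 15907 in mCherry (difference 0.37, limma adjusted p = 0.310). Sox2 had 1777 and 1990.4 against 1183 and 1037 (difference 0.76, adjusted p = 0.0639). Zfp42, also called Rex1, had 5669.6 and 6395 against 4685 and 4736. Pou5f1, a multi-copy gene by its pseudogenes, had 14877 and 19872 against 14117 and 12735. The difference was under 2-fold in all 4.

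Germline genes were lower in C1C3a in 7 of 17 single-copy members and higher in none, against 7.69% lower and 2.21% higher of all single-copy genes, with a median of -1.03. With the GC correction 3 calls remained, against 4.30% lower, and the median was -0.39. Tdrd1, a tudor protein of the piRNA pathway, had 161 and 52.4 normalised reads in C1C3a, 766 and 863 in C3+14 and 9.90 and 13.7 in mCherry (log2 difference -3.13, SE 0.49, limma adjusted p = 6.8e-04). Mov10l1, a piRNA helicase, had 242 and 221 against 526 and 568. Sycp2, a protein of the synaptonemal complex, had 2.21 and 2.83 against 16.8 and 38.9. These 3 kept their call with the correction, whereas Mael, Taf7l, Ddx4 and Sycp1 lost it, and Sycp1 moved from -1.07 to 0.07. Without C3+14 replicate 2, Sycp2 (adjusted p = 0.0934) and Mov10l1 (0.0532) were not called.

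Among immediate early genes, which respond fast to growth factor signals, 3 of 16 were higher and 1 lower in C1C3a, against 2.21% and 7.69% of all single-copy genes. Junb, an AP-1 subunit, had 372 and 289 normalised reads in C1C3a, 83.8 and 102 in C3+14 and 437 and 512 in mCherry. Ier2 had 617 and 675 against 196 and 201. Spry4, a feedback inhibitor of receptor kinases, had 48.7 and 101 against 8.38 and 9.72. Dusp6, a phosphatase for ERK and also a feedback inhibitor, went the other way, with 97.4 and 97.7 against 355 and 384. All 4 kept their call with the correction, and Spry4 lost it without C1C3a replicate 2 (adjusted p = 0.0708, limma).

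The Wnt, Hippo, and epiblast and Nodal lists each held called genes in both directions, and their counts stand beside the 9.90% called of all single-copy genes. In the Wnt list (3 of 17 called) Axin2, a feedback inhibitor, had 962 and 1103 normalised reads in C1C3a against 432 and 478, Wnt11, a ligand, 6.64 and 7.08 against 0 and 0, and Lgr5, a receptor for R-spondins, 14.4 and 11.3 against 63.7 and 71.3. In the Hippo list (2 of 15) Amotl2 had 4357 and 4567 in C1C3a against 1706 and 1505, while its relative Amot, both being angiomotins that bind YAP, had 67.5 and 31.1 against 229.5 and 280.2. In the epiblast and Nodal list (2 of 14) Otx2, an anterior homeobox factor, had 2.21 and 2.83 against 36.9 and 27.5. Smad7, an inhibitor of TGF-beta signalling, had 800.3 and 566 against 303 and 266. Lefty1, a Nodal antagonist that is multi-copy, had 70.8 and 42.5 against 15.1 and 4.86. A pseudocount of 8 ended the call of Wnt11 (0.89, limma adjusted p = 0.0995), and a pseudocount of 0.1 that of Otx2 (limma adjusted p = 0.142). The 8 calls named here were all kept with the GC correction. Without C1C3a replicate 1 those of Otx2, Smad7 and Lefty1 ended (adjusted p = 0.0888, 0.0872 and 0.0543, limma), as they did without C3+14 replicate 2 (0.0874, 0.0864 and 0.0901). Otx2 was also lost without either other library, and Lgr5 without C1C3a replicate 2 (0.0532) or C3+14 replicate 2 (0.0597).

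**Figure D4:**
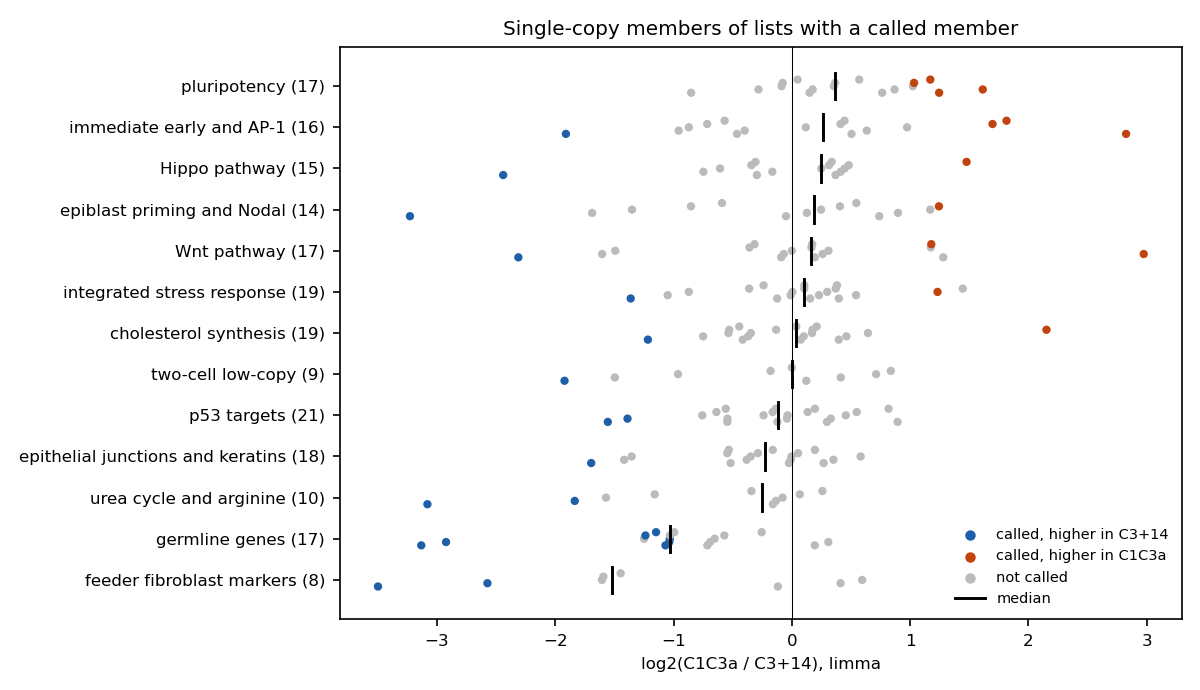
The log2 difference (C1C3a over C3+14) of each single-copy member of the 13 lists with a called member; each point is a gene, coloured where called, the bar is the median and the number in brackets counts members. Pluripotency members spread to the right of 0 with 4 called, and germline members to the left with 7 called.

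The p53 and integrated stress response lists were called at about the 9.90% of all single-copy genes. In the p53 list (2 of 21) Plk2, a polo-like kinase, had 5165 and 2846 normalised reads in C1C3a against 10994 and 11553 in C3+14, and Eda2r, a death receptor, 1823 and 1203 against 3815 and 3947. In the integrated stress response list (2 of 19) Ddit3, the factor CHOP, had 141 and 127 against 369 and 324, while Atf5 was higher in C1C3a at 778 and 878 against 441 and 280.2. The calls of Eda2r, Ddit3 and Atf5 ended with the correction, at -0.72, -0.96 and 0.75, and that of Atf5 without C3+14 replicate 2 (0.91). In cholesterol synthesis Msmo1, a sterol oxidase, was called at -1.22, and its call ended with the correction (-0.77) and without C1C3a replicate 2 (-0.92). In arginine metabolism 2 of 10 were called, Slc7a2, a transporter, at -1.83 and Gatm at -3.08, the latter lost with the correction at an adjusted p of 0.0559. Leaving out C1C3a replicate 2, C3+14 replicate 1 or C3+14 replicate 2 ended the calls of Slc7a2 (adjusted p = 0.0617 to 0.0973, limma), Gatm (0.0746 to 0.254) and Krt19 (0.0855 to 0.152). Krt19, a keratin, was the only one of 18 epithelial genes called, at -1.70. The heat shock genes Hspa1b and Hspa1a, which share 62.3% and 66.3% of their stretches and cannot be separated, were 1.38 and 1.33 higher in C1C3a, and the call of Hspa1a ended with the correction at 0.99, without C1C3a replicate 2 and without C3+14 replicate 2.

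Markers of fibroblasts, the cells on which mESCs are sometimes grown, were low in all 4 groups. Of 8 single-copy markers 2 were called, both higher in C3+14, against 7.69% of all single-copy genes, and the median difference over the 8 was -1.52. With the GC correction 3 were higher in C3+14, against 4.30%, and the median was -1.07. Lum, a proteoglycan, had 12.2 and 0 normalised reads in C1C3a, 31.8 and 50.2 in C3+14 and 0 in mCherry, and Col3a1, a collagen, 1.11 and 0 against 11.7 and 4.86. The calls of both ended when C1C3a replicate 2 (adjusted p = 0.238 and 0.163, limma) or C3+14 replicate 1 (0.0717 and 0.169) was left out and by edgeR and DESeq2. The summed list was 353 and 317 in C1C3a, 392 and 415 in C3+14 and 367 and 369 in mCherry, with Lum at 0 in FL and mCherry, and its part in the other results was not tested. The other 13 lists, trophectoderm, primitive endoderm, glycolysis, cell cycle, Myc, chromatin repressors of the 2-cell state, DNA methylation, nonsense-mediated decay and splicing factors among them, held 159 single-copy genes and 0 calls by limma, edgeR or DESeq2, against 9.90% of all single-copy genes by limma. Of these 40 had an unadjusted p under 0.05, and 2 were called with the GC correction.

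In the multi-copy genes the construct and the kind of library cannot be told apart. The largest difference was in Gm6763, of which 100% of stretches lie in other genes, with 451645 and 645087 normalised reads in C1C3a, 216 and 256 in C3+14, 992688 and 512405 in FL and 0 in mCherry. Obox4-ps22 had 2439 and 3825 in C1C3a and 1 read in each C3+14 library, at least 634-fold apart, and Obox4-ps21 had 2419.7 and 3803. Of 34 Obox pseudogenes 22 were higher in C1C3a and 1 lower, against 18.7% of multi-copy genes higher, with a median of 2.96. The 6 coding Obox genes, homeobox genes of oocyte and embryo, had 0 calls by limma, edgeR or DESeq2, 0 unadjusted p under 0.05 and a median of -0.14. Of 174 ribosomal protein pseudogenes 78 were higher in C1C3a and 2 lower, beside 840 higher and 63 lower of 2125 multi-copy processed pseudogenes. Their family sum was 370035 and 389640 normalised reads in C1C3a and 353646 and 343054 in C3+14. Of the 76 ribosomal protein genes 0 were called by the 3 tools and 26 had an unadjusted p under 0.05. Of the 1226 multi-copy genes higher in C1C3a, 593 (48.4%) were also at least 2-fold higher in the library of the kind shared by C1C3a and FL within both of a pair of deletion constructs, against 11.3% of multi-copy genes tested and 0.941% of those higher in C3+14.

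Unlike the Obox pseudogenes, the Zscan4, Usp17l, Tcstv, Tdpoz, Duxbl and coding Obox genes held no call that was higher in C1C3a. Of the 6 Zscan4 genes, which act in telomere lengthening, 2 passed the test, both lower in C1C3a, against 6.49% of multi-copy genes, and the difference ranged from -1.30 to -0.84. Zscan4d had 66259.5 and 100672 normalised reads in C1C3a against 190923 and 210381 in C3+14 and 428658 and 224119 in FL, a difference of -1.30 (limma adjusted p = 0.0066). With the GC correction 0 of 6 were called (Zscan4d -0.72, adjusted p = 0.107; Zscan4c -0.55, 0.284), and without C1C3a replicate 1 or C3+14 replicate 2 the call of Zscan4d ended (0.0698 and 0.0627), and that of Zscan4c without any 1 library. Usp17l genes, which encode deubiquitinases, were lower in C1C3a in 3 of 5, with and without the correction, against 6.49% of multi-copy genes lower as deposited. Usp17la had 11806 and 10245 against 46530.4 and 50209 (difference -2.14, adjusted p = 9.8e-05), and Usp17lb and Usp17le followed at -1.32 and -1.51, Usp17lb without a call at a pseudocount of 0.1 (adjusted p = 0.175, limma). Usp17lc was not called, with 38578 and 52462 against 43076 and 45567.

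Most other families held no call. Tcstv3 had 19442 and 33355 normalised reads in C1C3a and 21246 and 20672 in C3+14, and Tcstv1 1398 and 1687 against 1243 and 1344. Tdpoz genes had 0 calls in 5, with C1C3a sums of 24740.5 and 39312 against 22761 and 24333.5. Duxbl genes, relatives of Dux with a pair of homeoboxes, had 0 calls in 3. In these 3 families 0 genes had an unadjusted p under 0.05 by limma, and edgeR called 1 Tdpoz gene and DESeq2 none. Pramel and Pramef genes were lower in C1C3a in 4 of 13, against 6.49% of multi-copy and 7.69% of single-copy genes. With the correction 3 were lower (Pramel3 lost its call, limma adjusted p = 0.197). Pramef6 was at -2.17 and Pramel1, a single-copy member, at -1.50. The 4 include Pramef12os, counted by its symbol alone, with 5 and 1 reads in C1C3a and 10 and 25 in C3+14. Sp110, a nuclear body protein, had 8463 and 7765 against 10646 and 11109, and Arg2, an arginase, 893 and 1188 against 886 and 845, both without a call. Kdm4d, a histone demethylase, was lower in C1C3a at 60.9 and 17.0 against 169 and 151, a call that ended without C1C3a replicate 2, C3+14 replicate 1 or C3+14 replicate 2 (adjusted p = 0.0752 to 0.152, limma).

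**Figure D5:**
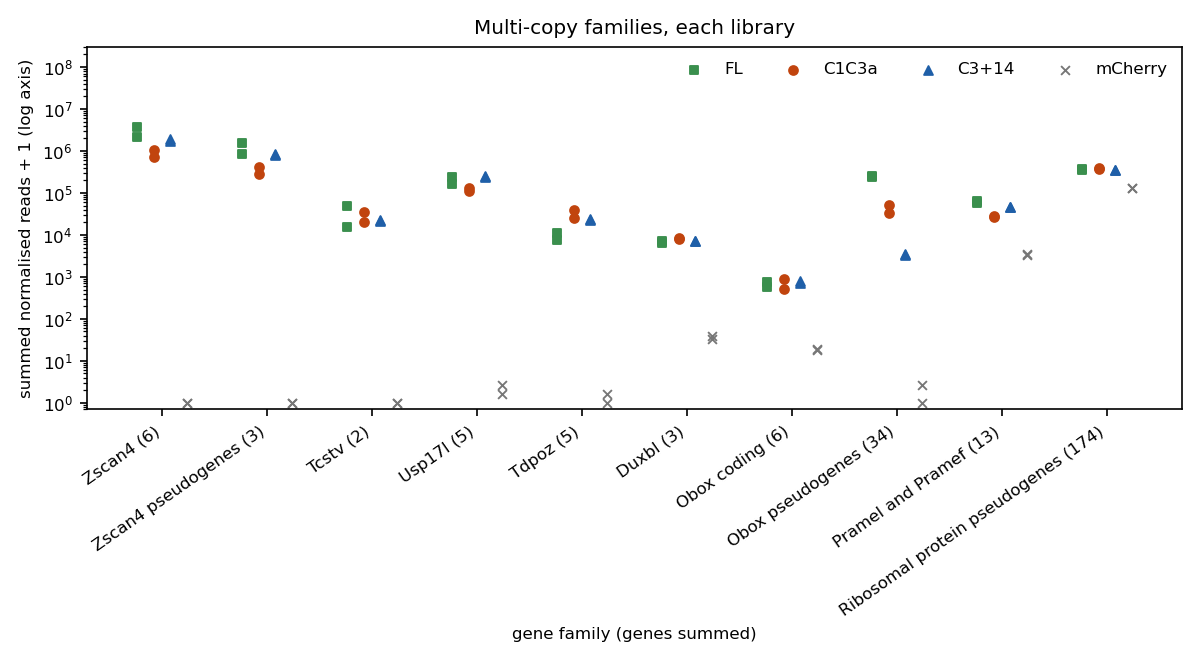
Summed normalised reads plus 1 of each multi-copy family on a log axis, for each library of FL, C1C3a, C3+14 and mCherry; the number in brackets counts the genes summed. Obox pseudogenes differ most, with 32891 and 52162 in C1C3a and 3346 and 3432 in C3+14, whereas Tcstv, Duxbl and coding Obox genes lie within 2-fold of each other in these 2 groups.

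At the other end, 3 multi-copy genes stood far higher in C3+14. Mab21l2, a gene of eye development that shares 33.3% of its stretches, had 332 and 322 normalised reads in C3+14 and 13.3 and 1.42 in C1C3a. Gm5941 had 214 and 239.7 against 8.86 and 0, and Gm12895 101 and 141 against 2.21 and 0. DESeq2 did not call Gm5941 (adjusted p = 0.150). FL and mCherry were low in all 3, at 30.0 or less. Cebpb, a bZIP factor that is multi-copy by 18.1% of its stretches, went the other way, with 172 and 185 in C1C3a against 33.5 and 40.5.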

How the data were processed

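Poly(A) RNA-seq libraries (TruSeq Stranded mRNA, 500 ng of total RNA from TRIzol, per the labels' protocols) of 14 samples were analysed. The deposited values are a signal: read counts per gene that the authors divided by 1 size factor per library. All of 371750 values above 0 (100%, within 0.01 read) were whole multiples of 1 step per column, so whole reads were recovered. Trim Galore 0.5.0, FastQC, DESeq2 and mm10 are named in the submitters' processing notes. The aligner, the counter and the handling of reads with several matches are not given in the sources used here.

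limma 3.58.1 (R 4.3.3) was fitted to log2(value + 1) with a trend over all 14 libraries, for 21584 genes that reached 10 normalised reads in 2 or more libraries. Fold changes on this scale understate those of low genes. Calls needed a Benjamini-Hochberg adjusted p under 0.05 over all genes tested and an absolute log2 change of at least 1. An exact permutation test of 2 against 2 cannot go below 0.333. On recovered reads edgeR 4.0.16 called 2639 genes and DESeq2 1.42.0 called 2553, against 3215. The limma procedure was checked on simulated data with the same dispersion for all genes. The simulation had no GC trend and no kinds of library, and it changed only genes of higher level. It does not cover those features or changes in low genes.

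Multi-copy genes share at least 10% of their 50-base stretches with another gene of GENCODE M21 (GRCm38). Type-sensitive genes differed at least 4-fold between the 2 kinds of library within both of a pair of deletion constructs. Symbols matched 55227 of 55487 identifiers (99.5%). Groups at 3 reads or fewer in both libraries were treated as at the floor, a limit for counting error only, because amplified reads carry no molecular identifiers. Replicates were not duplicates (chi-square per gene 17.6 in C1C3a and 4.11 in C3+14).

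Named genes are the 12 single-copy genes with the largest difference each way among called genes whose groups do not overlap and whose higher mean is at least 50 (8 predicted genes passed over, 4 each way), 3 multi-copy genes each way by the same rule, up to 3 called members of each of 26 lists, 12 fixed genes of the 2-cell state and pluripotency that could be tested, and the 3 most abundant induced genes without a call. Nr0b1, Ier2, Mael, Taf7l, Ddx4, Sycp1, Has2, Scn7a, Tmem92, Nelfa, Ddit4l, Pramef6, Pramef12os, Pramel1 and Pramel3 fall outside this rule and were chosen after their values were seen. A few named genes and list members are not reported here. The members, lists and tests were chosen with earlier results of these data known. Alternatives covered scaling, pseudocount, filter, tool, class limits, the replicate block, single libraries left out and, added after seeing the data, a GC correction by lowess (span 0.3).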

Additional observations from a re-analysis of the deposited data

How the results depend on the processing

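Of 1370 values for 81 named genes under these alternatives, 1239 kept direction and side of the threshold, 119 kept direction only, and 12 turned, all in genes without a call. Zfp352 turned with the GC correction, with and without a replicate block (0.29), and ranged from -0.36 to 0.0010 with single libraries left out. Usp17lc turned with TMM factors (-0.055) and quantile normalization (-0.13) and ranged from -0.20 to 0.24 with single libraries left out. Tcstv3 ranged from -0.11 to 0.67 likewise, and Eef2 (-0.038) and Rack1 (0.065) turned with the GC correction, with and without the block. Single libraries left out gave 640 to 1498 single-copy calls (640 without C3+14 replicate 2, 797 without C1C3a replicate 2, 923 without C3+14 replicate 1), 1087 to 1393 multi-copy, 57 to 67 type-sensitive, 1801 to 2978 in all, 184 to 333 DUX-induced, 142 to 325 DUX-repressed and 17 to 35 in the lists, and the lone sample is then assumed to vary like the other groups. The GC correction gave 976 single-copy and 161 DUX-repressed calls, and 921 and 151 with the replicate block added. The filter at 50 gave 927 single-copy, 31 type-sensitive, 2101 total and 243 DUX-induced calls, since fewer genes are tested. Pseudocount 0.1 gave 238 DUX-induced calls and the 4 libraries alone 195 DUX-repressed calls, and the cause was not tested. Moving the multi-copy limit to 1% gave 972 single-copy, 12 type-sensitive and 208 DUX-induced calls. Of these single-copy and DUX-induced calls, 18.3% and 19.2% were higher in C1C3a. At 50% there were 758 multi-copy, 275 type-sensitive and 817 DUX-induced calls, of which 59.9% were higher in C1C3a, so that the balance turned. A 2-fold limit for type-sensitive genes gave 154. These follow from moving genes between classes. Replicate numbers did not pair the samples: the deviation of same-numbered libraries correlated at 0.03 between the groups. The replicate block gave 1392 single-copy and 3068 total calls and ended, among the genes named in the text, that of Rfpl4. At these depths a gene at 0 reads allows up to 3 reads in a library.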
